A study of Mus musculus with 16 samples.

Results

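The genes described here are 61 protein-coding members of cytochrome P450 families 1 to 4 of the mouse. They were chosen by symbol, leaving out by name Cyp2b10, Cyp2c55, Cyp3a11, Cyp2e1, Cyp1a2, Cyp2f2, Cyp4a10 and Cyp4a14, and by a level above 0 in at least 4 libraries. Of 35275 genes in the table, 80 had a symbol of these families, 8 of them were the ones left out, and 11 were above 0 in fewer than 4 libraries. Those 11 were Cyp2b19, Cyp2b23, Cyp2c66, Cyp2j7, Cyp2j11, Cyp2j12, Cyp2j13, Cyp2w1, Cyp4a30b, Cyp4f37 and Cyp4f40. Just inside the limit lay Cyp4a12b, above 0 in 4 libraries, and just outside it lay Cyp2b19 and Cyp2b23, above 0 in 3 libraries each with highest values of 0.0353 and 0.416 FPKM. FPKM are fragments per kilobase of gene, corrected for the depth of each library, so levels can be compared between genes.

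Cytochrome P450 enzymes are heme proteins that insert an oxygen atom into lipophilic molecules. In the liver most enzymes of families 1 to 4 sit in the endoplasmic reticulum of hepatocytes and receive electrons from P450 reductase. Families 1 to 3 are known for the oxidation of drugs, toxins, steroids and fatty acids, with Cyp2c and Cyp2j enzymes making epoxides of arachidonic acid, and family 4 for the omega-hydroxylation of fatty acids and leukotrienes. Nuclear receptors such as CAR, PXR and PPARα and the hepatocyte factor HNF4A are known to control many of these genes. Several mouse members are known to differ between the sexes through the pattern of growth hormone release.

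RNA was sequenced from 16 livers in 4 groups of 4: wild-type (WT) mice and mice with a liver-specific knockout of Zfp36l1 (LKO), an RNA-binding protein gene, each on a control diet or a diet containing ethanol. Library numbers within a group follow the order of the records, and what they share between groups is not stated. A difference that runs along these numbers in each group is described further on. Sex, age, strain, diet composition, feeding time and the driver of the liver-specific deletion are not given in the sources used here, nor is it stated that each library is 1 animal, so p-values measure the spread between these libraries. Zfp36l1 stood at 9.30 to 25.5 FPKM in the 8 WT libraries and at 0.572 to 1.76 in the 8 LKO libraries.

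Total reads ran from 9890475 in WT ethanol library 2 to 24768569, and the lowest of the other 15 libraries had 19069903. WT ethanol library 2 stood apart: its share of reads on mitochondrial genes was 22.5%, where the other libraries had 3.64% to 6.97%, its Spearman correlations with other libraries were 0.664 to 0.721 against 0.858 to 0.985 among the rest, and its 3 erythroid marker genes summed to 1914 FPKM against 91.9 to 265. It was also the only library with Y-linked transcripts above 0.1 FPKM, for example Ddx3y at 1.43, and its Xist of 6.62 FPKM was the lowest of the 16. All 8 hepatocyte markers were present in every library, with Apob at 32.9 FPKM as the lowest in WT ethanol library 2. LKO control library 4 differed from the rest in the sex-biased P450 genes described further on.

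The 61 genes together made up 0.841% to 1.98% of all FPKM in 15 libraries and 0.262% in WT ethanol library 2. Their sum was 7429.9, 7806, 6049 and 6778 FPKM in the WT control libraries, 8096, 2136, 5831 and 4207 in WT ethanol, 7541, 9225, 7312 and 5635 in LKO control and 8512, 8701, 8464 and 10011 in LKO ethanol. WT ethanol library 2 lay far below all others, and LKO ethanol library 4 was the highest. By their median level over the libraries, 16 of the genes stood at 100 FPKM or more, 16 between 10 and 100, 11 between 1 and 10, and 18 below 1. Over the 15 libraries other than WT ethanol library 2, the highest medians were 942 FPKM for Cyp2a4, 662 for Cyp2a5, 595 for Cyp2d26, 543 for Cyp2d10, 423 for Cyp2a12, 366 for Cyp2c37 and 349.9 for Cyp2c29. The ranges of these 7 genes over the libraries overlapped, so that their order did not hold in each liver.

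**Figure D1:**
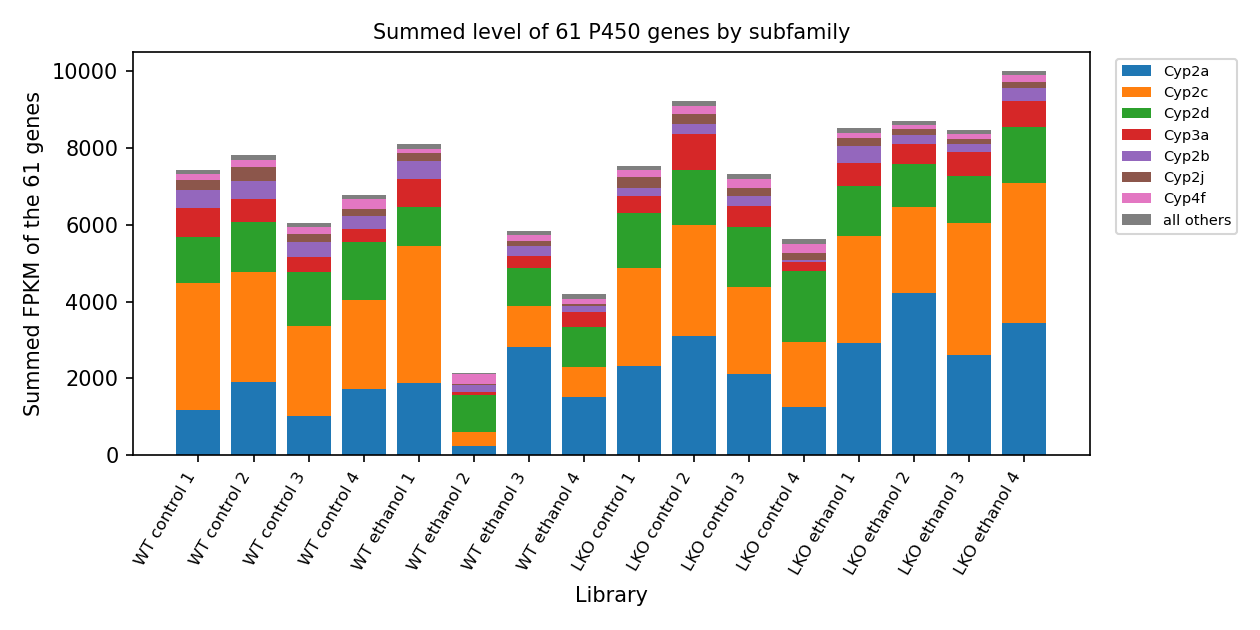
Summed FPKM of the 61 P450 genes in each of the 16 livers, stacked by subfamily (y axis, FPKM; x axis, library). The Cyp2c segment stands at 3544 FPKM in WT ethanol library 1, above every WT control (2319 to 3294 FPKM), and at 367, 1072 and 791 FPKM in WT ethanol libraries 2, 3 and 4.

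Most of these genes lie in clusters of close copies. The 13 Cyp2c genes all map to chromosome 19, the 4 Cyp2a and 2 Cyp2b genes to chromosome 7, the 8 Cyp2d genes to chromosome 15, the 8 Cyp3a genes to chromosome 5, the 5 Cyp4a genes to chromosome 4, and 6 of the 7 Cyp4f genes to chromosome 17 (GRCm38, GENCODE M21). Coding sequences of Cyp2c40, Cyp2c67, Cyp2c68 and Cyp2c69 were 96.5% to 98.1% identical to each other, and between 43.3% and 72.1% of the 50-base windows of their transcripts also occurred in other genes. For Cyp3a41a and Cyp3a41b the shares were 98.6% and 93.5%, with coding sequences 99.9% identical. Over 25% of windows were shared in 24 of the 61 genes and none in 10, Cyp2c23 and Cyp2c70 among them. How reads matching several genes were counted is not given in the sources used here, so values of such copies can hold reads of each other.

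Along chromosome 19 the Cyp2c genes run in the order Cyp2c65, Cyp2c29, Cyp2c38, Cyp2c39, Cyp2c67, Cyp2c68, Cyp2c40, Cyp2c69, Cyp2c37, Cyp2c54, Cyp2c50 and Cyp2c70, with Cyp2c23 farther away. RefSeq promoters (GRCm38.p6, 250 bases before to 50 after each start) were found for 49 of the 61 genes, 54 promoters in all. The word CAAAGTCCA, a form of site known to be bound by HNF4A, occurred on either strand in 9 of these 54 promoters (16.7%) and in 0.475% of all 32851 promoters. The 9 belonged to Cyp2c40, Cyp2c65, Cyp2c67, Cyp2c68, Cyp2c69, Cyp2c70, Cyp3a16, Cyp3a41a and Cyp3a41b, of which several are near-identical copies and so are not independent. The sequences that follow give 70 bases around this word for the 4 near-identical copies, which were lower on ethanol in WT livers, and the aligned stretch for 5 other genes of the cluster, 2 that were also lower there and 3 that were not called. The last line gives 70 bases around the word in Cyp2c70, which holds it and was not called. Capitals mark CAAAGTCCA, and each sequence reads 5′ to 3′ on the strand of its gene.
Cyp2c67, chr19:39649128-39649197, minus strand: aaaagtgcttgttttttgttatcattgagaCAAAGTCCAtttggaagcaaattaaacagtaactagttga
Cyp2c68, chr19:39741139-39741208, minus strand: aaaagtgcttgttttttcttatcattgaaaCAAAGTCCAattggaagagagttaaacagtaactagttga
Cyp2c40, chr19:39812820-39812889, minus strand: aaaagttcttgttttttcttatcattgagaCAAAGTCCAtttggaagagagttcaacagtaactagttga
Cyp2c69, chr19:39886805-39886874, minus strand: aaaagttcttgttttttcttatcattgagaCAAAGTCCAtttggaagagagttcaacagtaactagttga
Cyp2c38, chr19:39463147-39463216, minus strand: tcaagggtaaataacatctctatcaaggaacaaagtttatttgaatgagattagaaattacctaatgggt
Cyp2c39, chr19:39510706-39510775, plus strand: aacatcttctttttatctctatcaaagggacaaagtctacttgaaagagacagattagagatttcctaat
Cyp2c29, chr19:39286946-39287015, plus strand: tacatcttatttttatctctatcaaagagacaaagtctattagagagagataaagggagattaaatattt
Cyp2c37, chr19:39992278-39992347, plus strand: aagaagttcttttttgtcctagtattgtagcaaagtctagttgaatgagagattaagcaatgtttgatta
Cyp2c50, chr19:40089535-40089604, plus strand: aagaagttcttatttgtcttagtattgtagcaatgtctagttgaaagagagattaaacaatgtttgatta
Cyp2c70, chr19:40187311-40187380, minus strand: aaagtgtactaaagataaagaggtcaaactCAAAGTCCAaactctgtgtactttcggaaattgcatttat
The word began 125, 77, 45 and 75 bases before the RefSeq start in Cyp2c67, Cyp2c68, Cyp2c40 and Cyp2c69, and 64 bases before it in Cyp2c70. In the aligned 9 bases, 1 base differed from it in Cyp2c39, Cyp2c29 and Cyp2c37, and 2 bases differed in Cyp2c38 and Cyp2c50. Whole promoters were 91.6% to 98.9% identical among the 4 copies. A match is a description of the letters, and factor binding was not measured.

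The comparison of diets within WT mice asked how ethanol feeding altered these genes in normal livers. A group of Cyp2c genes was lower on ethanol, among them Cyp2c67, Cyp2c40 and Cyp2c69, as were Cyp4f14, a fatty acid and leukotriene hydroxylase, and Cyp2d40. The test was limma on log2(FPKM + 1) over the 11298 genes with FPKM of at least 1 in at least 4 libraries, and a gene was called at a Benjamini-Hochberg adjusted p under 0.05. Of the 61 genes 45 passed this filter. Of these 45, 10 were called lower (22.2%, against 1.59% of all genes tested) and 1 higher, Cyp4f18 (2.22%, against 2.58%), which passed the filter only through ethanol libraries. The 10 are not independent, since they include the close copies Cyp2c40, Cyp2c67, Cyp2c68 and Cyp2c69, which can hold reads of each other. At an unadjusted p under 0.05 there were 20 of 45, against 19.7% of all genes. The median log2 fold change over the 45 was −0.86 with 38 below 0, against −0.02 over all genes tested. The 4 ethanol libraries lay below all 4 controls in 10 of the 45 genes (against 4.45% of all genes) and above them in 1 (against 5.62%). In bulk liver, fewer cells of a type and less RNA per cell cannot be told apart.

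The size of this group depended on single libraries. Without WT ethanol library 2, 9 genes were called lower (against 2.25% of all genes) and 3 higher (against 7.23%), 10 of the 11 above among them, and the median became −0.36 against 0.17 over all genes. The count of 11 became 4, 3, 7 and 3 without WT control library 1, 2, 3 or 4, where 1.38%, 1.29%, 2.88% and 1.34% of all genes were called. It became 14, 7 and 4 without WT ethanol library 1, 3 or 4 (8.32%, 3.61% and 2.17% of all genes), and 7 without LKO control library 1 or 3 or LKO ethanol library 1 (3.04%, 3.12% and 3.32%). With all libraries 4.18% of all genes were called. A fit to the 8 WT libraries alone called none of the 45 (against 0.31% of all genes called higher and 0.204% lower), while 16 of the 45 had an unadjusted p under 0.05 (against 12.3%). The first component within groups, taken without WT ethanol library 2 and holding 40.0% of that variance, separated libraries 1 and 2 from libraries 3 and 4 in each group. A term for these sides, in the fit without that library, called 15 of the 45 genes, 11 lower (against 4.7% of all genes) and 4 higher (against 15%). A fit that gave each of the 16 libraries a weight estimated from the data called 17 lower (against 7.04%) and 6 higher (against 31.3%). Its weights for WT ethanol libraries 1 to 4 were 0.278, 0.0418, 4.998 and 1.056. Library 3 thus dominated that group wherever this fit is cited, and its calls rest largely on that library. The limma method for counts (voom), run on whole reads recovered from the FPKM values, called 7 of the 11, all lower (3.01% of all genes were called). It called none of the 45 in the 4 comparisons below that call none, where 0% to 0.434% of all genes were called.

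Cyp2c67 (ENSMUSG00000062624, chr19:39608842-39649051, minus strand) had the smallest adjusted p. It stood at 117, 159.9, 122 and 85.5 FPKM in WT control livers and at 42.4, 6.60, 25.8 and 20.9 in WT ethanol livers, means 121 ± 30.5 and 23.9 ± 14.8 (SD, n = 4). Each ethanol library lay below each control library. The difference was −2.51 on the log2 scale (SE 0.463, limma adjusted p = 0.00864), and −2.02 with an adjusted p of 0.00576 without WT ethanol library 2. It was called in 16 of the 16 fits that left out 1 library. Its neighbour Cyp2c68 (chr19:39688834-39741054) stood at 451, 355, 310.0 and 300.4 FPKM under control diet and 248, 84, 162 and 151 on ethanol. The groups did not overlap, and the smaller difference (log2 fold change −1.21, SE 0.316, limma adjusted p = 0.0394) was called in 6 of the 16 fits that left out 1 library.

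Cyp2c40 (chr19:39767071-39812814), known for its hydroxylation of arachidonic acid, stood at 294, 345, 155 and 232 FPKM in WT control livers and 151, 19.7, 31.8 and 10.2 in WT ethanol livers. Cyp2c69 (chr19:39842814-39886799) stood at 543, 539, 238 and 253 FPKM in WT control and 196, 30.8, 19.3 and 6.92 in WT ethanol livers. In both genes WT ethanol library 1 was the highest of its group, close under the lowest control library, and the other 3 ethanol libraries were far below. The log2 fold changes were −2.91 (SE 0.645, limma adjusted p = 0.0193) for Cyp2c40 and −3.53 (SE 0.869, adjusted p = 0.0313) for Cyp2c69, called in 12 and 11 of the 16 fits without 1 library. Leaving out WT ethanol library 2 gave −2.69 and −3.53, with adjusted p-values of 0.0253 and 0.0333.

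Cyp2c38 (chr19:39389556-39463075) and Cyp2c39 (chr19:39510862-39568529), a retinoic acid hydroxylase, lie side by side at the start of the row of lower genes. Cyp2c38 stood at 33.6, 36.9, 67.2 and 64.9 FPKM under control diet and 21.1, 5.11, 21.4 and 14.3 on ethanol in WT livers, with no overlap (log2 fold change −1.75, SE 0.370, limma adjusted p = 0.0151). Cyp2c39 stood at 9.18, 10.6, 8.34 and 5.07 FPKM in WT control and 3.73, 0.390, 2.36 and 1.85 in WT ethanol livers, again with no overlap (log2 fold change −1.68, SE 0.345, limma adjusted p = 0.0135). Both were called in 15 of the 16 fits without 1 library. The adjusted p rose to 0.0590 for Cyp2c38 without WT control library 4, and to 0.0531 for Cyp2c39 without WT control library 2.

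Cyp2c23 (chr19:44005022-44029208), an arachidonic acid epoxygenase that lies apart from the cluster and shares no 50-base window with another gene, stood at 68.9, 87.1, 135 and 179 FPKM in WT control and 37.8, 5.61, 64.9 and 31.3 in WT ethanol livers. The ethanol libraries all lay below the controls, by little for library 3 (log2 fold change −2.03, SE 0.538, limma adjusted p = 0.0428). Without WT ethanol library 2 the log2 fold change was −1.35 with an adjusted p of 0.0312. It was called in 5 of the 16 fits without 1 library and in 6 of 11 other settings, and not with libraries scaled to equal sums, with pseudocount 0.1, without the filter on level, with voom or in the fit to WT libraries alone. Cyp2c54 (chr19:40037940-40073827) stood at 115, 104, 109 and 136 under control diet and 159.8, 5.26, 16 and 7.21 on ethanol: library 1 was above all controls and the other 3 were far below them. It was called (log2 fold change −2.58, SE 0.708, limma adjusted p = 0.0489) although the groups overlapped, in 1 of the 16 fits without 1 library, and not without WT ethanol library 2 (adjusted p = 0.0742). Between libraries 1 and 2 of the groups, WT ethanol library 2 left out, the difference was 0.55, and between libraries 3 and 4 it was −3.37.

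The other 4 Cyp2c genes tested were not called in WT livers, with libraries weighted equally and none left out. Cyp2c29, known as an inducible target of CAR, stood at 310.0, 239.5, 247 and 218 FPKM under control diet and 742, 82.9, 282 and 145 on ethanol. Cyp2c37 stood at 714, 369, 446 and 334 FPKM in WT control and 709.8, 42.9, 139.9 and 62.6 in WT ethanol livers, and Cyp2c50 at 368, 294, 283 and 258 FPKM in WT control and 689, 25.8, 108 and 49 in WT ethanol livers. In these 3 genes WT ethanol library 1 was level with or above the highest control and library 2 far below the lowest, so the groups overlapped. Cyp2c70, the enzyme that makes muricholic acids in the mouse, stood at 270.0, 329, 245 and 254 FPKM in WT control and 544, 58.4, 199 and 290.4 in WT ethanol livers, with WT ethanol library 1 highest and library 2 lowest. The log2 fold change in WT was below 0 in the 12 Cyp2c genes tested (median −1.77), against 52.3% of all genes tested. Without WT ethanol library 2 it was below 0 in 10 of them (median −1.34), against 31% of all genes. Cyp2c29 (0.31) and Cyp2c70 (0.21) were then above 0. Cyp2c65 was at or under 0.0800 FPKM in all libraries and was not tested.

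**Figure D2:**
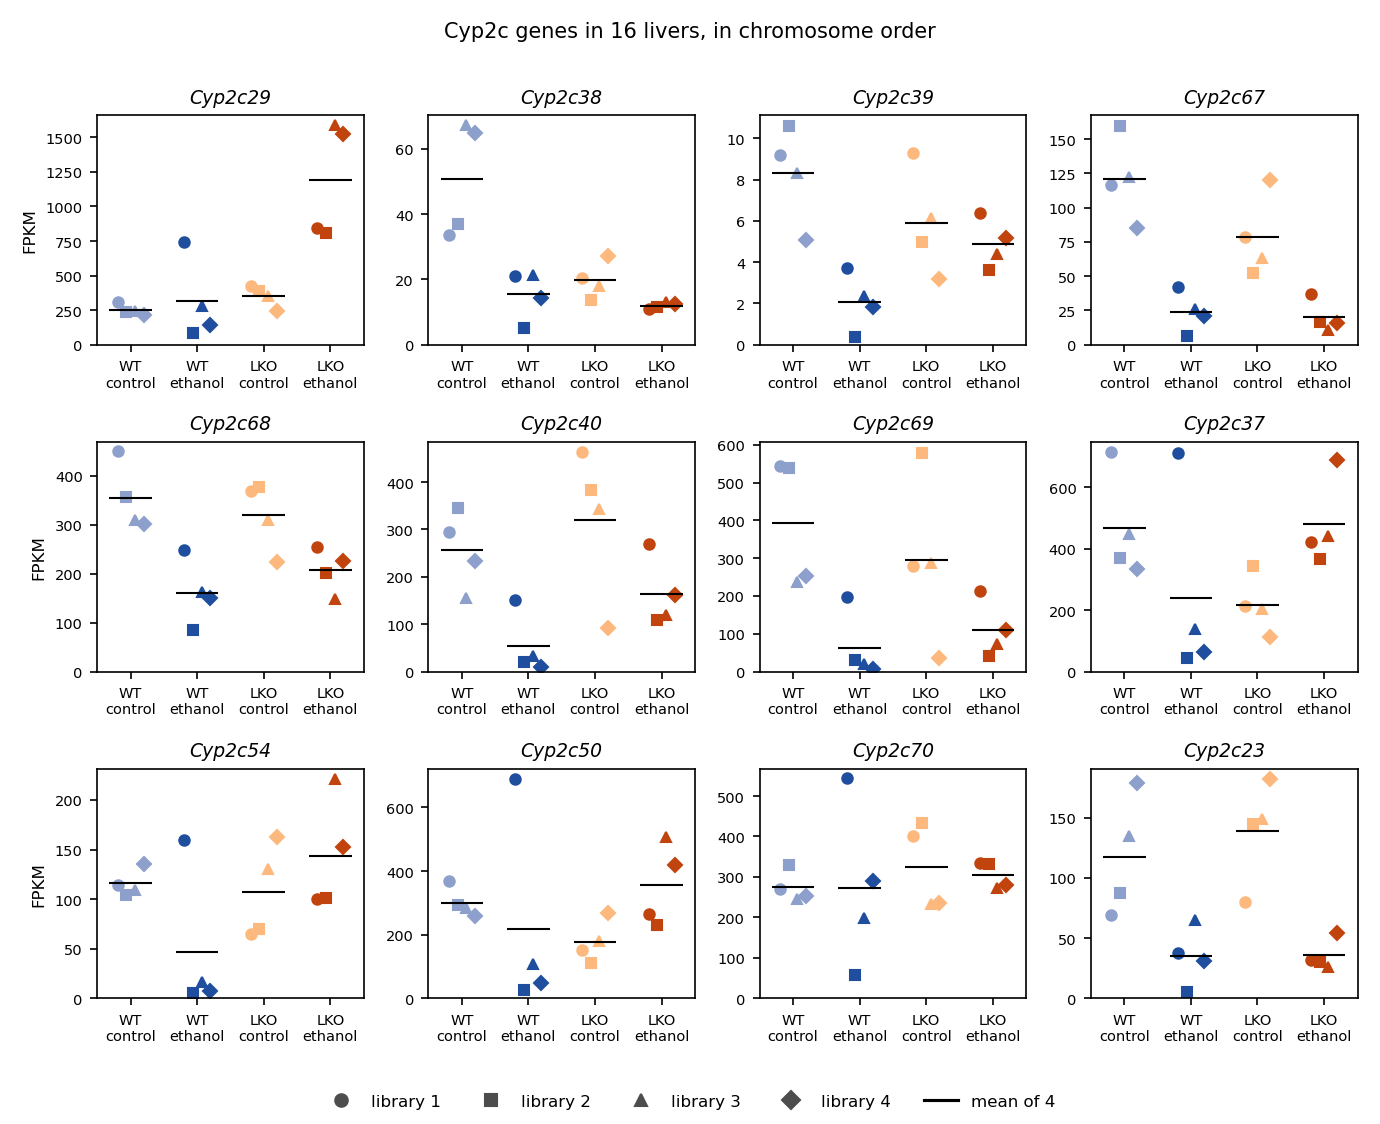
FPKM of 12 Cyp2c genes (y axis, one panel a gene) in the 4 groups (x axis), with 1 point a library, the shape giving the library number, and a bar at the mean of 4. For Cyp2c67, Cyp2c68, Cyp2c40, Cyp2c69, Cyp2c38, Cyp2c39 and Cyp2c23 the WT ethanol points lie below all WT control points, while Cyp2c29 stands at 805 to 1586 FPKM in the LKO ethanol livers and at 244 to 428 in the LKO controls.

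Outside the Cyp2c cluster, Cyp4f14 (ENSMUSG00000024292, chr17:32905070-32917342, minus strand) stood at 64.2, 95.7, 77.6 and 121 FPKM in WT control and 42.5, 12.2, 35.4 and 17.7 in WT ethanol livers, means 89.6 ± 24.5 and 27 ± 14.3 (SD, n = 4). The groups did not overlap, the log2 fold change was −1.82 (SE 0.359, limma adjusted p = 0.0119), and it was called in 16 of the 16 fits that left out 1 library. Without WT ethanol library 2 it was −1.51 with an adjusted p of 0.00891. Cyp2d40 (chr15:82759833-82764183) stood at 65.3, 66.7, 72.3 and 112 FPKM in WT control and 25.1, 53.8, 29.1 and 21.5 in WT ethanol livers. In LKO it stood at 92.4, 62.9, 92.5 and 108 FPKM in control and 61.2, 25.9, 74.2 and 80.1 in ethanol livers, which overlapped. WT ethanol library 2 was the highest of its group, and the difference (log2 fold change −1.32, SE 0.362, limma adjusted p = 0.0497) was −1.58 with an adjusted p of 0.00934 without it. It was called in 2 of the 16 fits without 1 library.

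Cyp4f18 (chr8:71988482-72009626), the leukotriene B4 hydroxylase known from myeloid cells, stood at 0.431, 0.493, 0.145 and 0.254 FPKM in WT control and 0.725, 6.24, 1.86 and 2.45 in WT ethanol livers. All 4 ethanol libraries lay above the controls, with library 2 the highest (log2 fold change 1.33, SE 0.331, limma adjusted p = 0.0324, and 0.96 with an adjusted p of 0.0360 without library 2). In LKO it stood at 0.258, 0.537, 0.507 and 0.0736 FPKM in control and 0.384, 1.45, 0.0785 and 0.261 in ethanol livers, which overlapped. The gene passed the filter through 3 WT ethanol libraries and 1 LKO ethanol library, and no control library reached 1 FPKM. It was tested only because it was high there, so its call supports nothing. The call was made in 11 of the 16 fits without 1 library and in 5 of 11 other settings, and not without the filter on level, with pseudocount 0.1, with upper quartile or quantile scaling, with voom or in the fit to WT libraries alone. Of the 7 Kupffer cell and macrophage markers, 1 (Marco) was called higher on ethanol in WT and none in LKO, and their sum was 179, 141, 71.5 and 90.2 FPKM in WT control and 122, 82.3, 195 and 237 in WT ethanol livers. The neutrophil markers S100a8, S100a9, Ly6g and Mpo summed to 5.94, 3.25, 1.65 and 0.859 FPKM in WT control and 6.91, 7.82, 2.11 and 8.07 in WT ethanol livers. Their part in the Cyp4f18 difference was not tested. In the fit without WT ethanol library 2, Cyp2a12 (log2 fold change 0.59, limma adjusted p = 0.0496) and Cyp4f16 (1.30, 0.0263) were called higher as well.

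The 8 hepatocyte markers summed to 76555, 73584, 66218 and 61788 FPKM in WT control and 76044, 63000.1, 53197 and 44024 in WT ethanol livers. Of them 7 had a log2 fold change below 0 and none was called. The sum is mostly Alb and Apoa1. WT ethanol libraries 3 and 4 held the lowest sums of the 16 libraries. In WT ethanol library 2 Alb was the lowest of the 16 (23000 FPKM, against 27582 or more) and so was Apob (32.9), while Apoa1 was the highest (34502). The part of hepatocyte content in the P450 differences was not tested.

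In LKO livers the same diet comparison called none of the 45 genes (all genes tested: 0.168% higher and 0.257% lower), and 6 had an unadjusted p under 0.05 against 9.19% of all genes. The lowest p-values belonged to Cyp2c67 and Cyp2g1, lower on ethanol, and Cyp3a59, higher. The median log2 fold change was −0.11, with 26 of 45 below 0 (57.8%, against 42.2% of all genes tested), and without LKO control library 4 it was −0.24 with 30 below 0 (66.7%, against 42.5%). Cyp2c67 stood at 78.6, 52.4, 63.2 and 120.5 FPKM in LKO control and 36.8, 16.8, 10.4 and 15.8 in LKO ethanol livers, without overlap (log2 fold change −2.0, SE 0.463, limma adjusted p = 0.0732). Cyp3a59 (chr5:146079257-146113287), a close copy of the major Cyp3a25, stood at 15, 22.6, 9.75 and 6.39 FPKM in LKO control and 32.8, 60, 52.4 and 60.3 in LKO ethanol livers, with every ethanol library above every control (log2 fold change 1.95, SE 0.495, limma adjusted p = 0.102). Cyp2g1 (chr7:26808892-26821205), best known from the nasal mucosa, stood at 9.75, 16.8, 6.33 and 5.14 FPKM in LKO control and 2.97, 2.64, 1.25 and 4.73 in LKO ethanol livers, all ethanol libraries below the controls (log2 fold change −1.38, SE 0.382, limma adjusted p = 0.143).

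This count changed with WT ethanol library 2, which enters this comparison only through the shared estimate of spread. In the fit without it, 6 of the 45 were called, against 2.22% of all genes higher and 1.4% lower: Cyp2c67 (adjusted p = 0.00660), Cyp2c23 (0.00716), Cyp4f14 (0.0373) and Cyp2g1 (0.0491) lower, and Cyp3a59 (0.00317) and Cyp2c29 (0.0243) higher, all by limma. With LKO control library 4 left out too, Cyp2c67 and Cyp2c23 were called lower (against 0.584% of all genes) and Cyp3a59 higher (against 0.859%). A fit to the 8 LKO libraries alone called 2 higher (against 1.19%) and 3 lower (against 1.01%), Cyp2g1 being the one of the 6 not called. The fit with a term for the sides, also without WT ethanol library 2, called 11: Cyp2a5, Cyp2a12, Cyp2c29, Cyp3a25 and Cyp3a59 higher (against 6.53% of all genes) and Cyp2c23, Cyp2c67, Cyp2c68, Cyp2g1, Cyp4f13 and Cyp4f14 lower (against 4.14%). Groups did not overlap for 6 genes higher on ethanol (13.3%, against 8.15% of all genes) and 5 lower (11.1%, against 4.14%).

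Cyp2c29 had the largest difference in mean FPKM between the LKO diets among the 61 genes. It stood at 428, 386, 349.9 and 244 FPKM in LKO control and 845, 805, 1586 and 1526 in LKO ethanol livers, means 352 ± 78.6 and 1191 ± 423 (SD, n = 4). Every ethanol library lay above every control, libraries 3 and 4 by most (log2 fold change 1.71, SE 0.489, limma adjusted p = 0.165). Cyp2c23 stood at 79.8, 145, 149 and 182 FPKM in LKO control and 32.2, 30.5, 26.2 and 54.6 in LKO ethanol livers (log2 fold change −1.92, SE 0.538, limma adjusted p = 0.152), and Cyp4f14 at 115, 131, 106 and 126 FPKM in LKO control and 60.5, 35.3, 49.2 and 80 in LKO ethanol livers (log2 fold change −1.13, SE 0.359, limma adjusted p = 0.235). In neither of them did the groups overlap. Cyp2c40 stood at 462, 382, 343 and 91.2 FPKM in LKO control and 270.0, 108, 119 and 161 in LKO ethanol livers, Cyp2c69 at 279.6, 579, 287 and 35.9 FPKM in LKO control and 214, 41.4, 72.6 and 111 in LKO ethanol livers, and Cyp2c68 at 369, 377, 309 and 223 FPKM in LKO control and 255, 201, 149 and 225 in LKO ethanol livers. These 3 overlapped between diets: LKO control library 4 was the lowest control in all 3. Cyp2c38 stood at 20.3, 13.7, 18 and 27.3 FPKM in LKO control and 10.9, 11.5, 12.9 and 12.4 in LKO ethanol livers, and Cyp2c39 at 9.26, 4.97, 6.16 and 3.17 FPKM in LKO control and 6.40, 3.63, 4.41 and 5.16 in LKO ethanol livers.

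Averaged over both genotypes, the ethanol diet went with 10 genes called lower (22.2%, against 3.19% of all genes) and none higher (0 of 45, against 4.59%). By limma adjusted p they were Cyp2c67 (log2 fold change −2.25, adjusted p = 0.000725), Cyp4f14 (−1.47, 0.00218), Cyp2c23 (−1.97, 0.00411), Cyp2g1 (−1.36, 0.00516), Cyp2c38 (−1.20, 0.00975), Cyp2c68 (−0.92, 0.0191) and Cyp2c40 (−1.87, 0.0191), then Cyp2d40 (−0.98, 0.0271), Cyp2c39 (−0.93, 0.0275) and Cyp2c69 (−2.33, 0.0278). The 7 named before Cyp2d40 were called in all 16 fits that left out 1 library and under each of the 10 other settings tried. Cyp2g1 is the 1 of the 10 not called in WT alone, where it stood at 3.45, 3.55, 1.02 and 4.09 FPKM under control diet and 1.30, 0, 0.778 and 0.244 on ethanol. This average shares its libraries with the comparisons within each genotype, so it is no separate support for them. Without WT ethanol library 2, 12 genes were called lower (against 5.7% of all genes) and 6 higher (against 14.8%). The number called was 7 without LKO control library 1, LKO control library 3 or LKO ethanol library 2, where 5.33%, 5.23% and 4.59% of all genes were called, against 7.78% with all libraries.

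**Figure D3:**
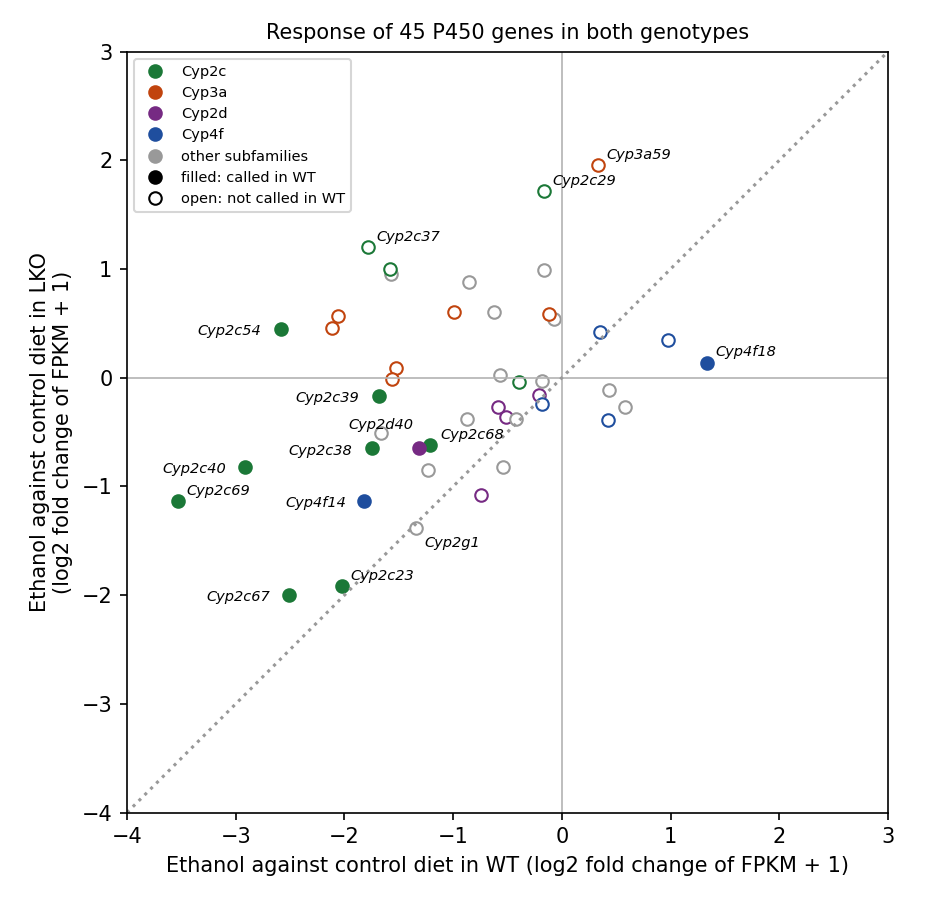
Log2 fold change of ethanol against control diet in WT (x axis) and in LKO (y axis) of the 45 genes that passed the filter, coloured by subfamily, with filled points for genes called in WT and a dotted line where both are equal. The 8 filled Cyp2c points lie left of 0, and 1 of these, Cyp2c54, lies above 0 on the LKO axis. With the spread shared by all 16 libraries no gene was called in LKO. Fits to the libraries of 1 genotype alone called 0 of the 45 in WT (0.513% of all genes) and 5 in LKO (2.2%).

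On the control diet, the comparison of LKO with WT livers called none of the 45 genes (all genes tested: 0% higher and 0.00885% lower), with 3 at an unadjusted p under 0.05 against 3.45% of all genes. The 3 were Cyp2g1, Cyp2c38 and Cyp2b13. Cyp2g1 stood at 3.45, 3.55, 1.02 and 4.09 FPKM in WT and 9.75, 16.8, 6.33 and 5.14 in LKO control livers, all LKO libraries above all WT (log2 fold change 1.34, SE 0.382, limma adjusted p = 0.818). Cyp2c38 stood at 33.6, 36.9, 67.2 and 64.9 FPKM in WT control and 20.3, 13.7, 18 and 27.3 in LKO control livers, all LKO below all WT (log2 fold change −1.28, SE 0.370, limma adjusted p = 0.818). Cyp2b13 stood at 238, 228, 143 and 91.5 FPKM in WT control and 72.4, 42.4, 47.1 and 0.801 in LKO control livers, again without overlap, with LKO control library 4 near 0 (log2 fold change −2.84, SE 0.991, limma adjusted p = 1). Without that library its log2 difference was −1.62. The fit with a weight for each library called Cyp2g1 higher (against 0.434% of all genes) and Cyp2c38 lower (against 1.87%), and the fit with the side term, which also left out WT ethanol library 2, called Cyp2c38 lower (against 0.0443%).

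On the ethanol diet, LKO against WT livers called none of the 45 either with libraries weighted equally (all genes tested: 0.0354% higher and 0.0443% lower), but 16 had an unadjusted p under 0.05, against 11.9% of all genes. This comparison shares its WT ethanol libraries with the diet comparison in WT. Cyp2c29 stood at 742, 82.9, 282 and 145 FPKM in WT and 845, 805, 1586 and 1526 in LKO ethanol livers, every LKO library above every WT (log2 fold change 2.33, SE 0.489, limma adjusted p = 0.0839). Cyp2c54 stood at 159.8, 5.26, 16 and 7.21 FPKM in WT ethanol and 99.8, 101, 221 and 152 in LKO ethanol livers (LKO control livers: 64.8, 69.6, 131 and 163), WT library 1 lying within the LKO range and the other 3 far below it (log2 fold change 2.82, SE 0.708, limma adjusted p = 0.172). Cyp3a44 stood at 18.2, 3.71, 7.07 and 2.35 FPKM in WT ethanol and 126, 51, 93.1 and 106 in LKO ethanol livers, with no overlap (log2 fold change 3.69, SE 0.986, limma adjusted p = 0.200). Groups did not overlap for 5 genes higher in LKO, against 0.894% of all genes.

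WT ethanol library 1 was the high one of its group in Cyp2c29, Cyp2c37, Cyp2c50 and Cyp2c54. Without it 7 genes were called higher in LKO on ethanol (15.6%, against 0.646% of all genes), namely Cyp2c29, Cyp2c37, Cyp2c40, Cyp2c50, Cyp2c54, Cyp3a44 and Cyp4f14, and Cyp4f18 was called lower (2.22%, against 2.78%). As Cyp4f18 passed the filter mainly through high WT ethanol libraries, its call supports nothing here either. With both WT ethanol library 2 and LKO control library 4 left out, Cyp3a44 alone was called, as higher (against 0.062% of all genes, and 0.142% lower). No call was made without WT ethanol library 2 alone, and with the side term besides Cyp2c29 and Cyp2d40 were called higher (against 0.257% of all genes, and 1.32% lower). The fit with a weight for each library, dominated in the WT ethanol group by library 3, called 14 of the 45 higher in LKO (against 2.77%). It called 4 lower, Cyp4f18 among them (against 27.9%).

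The interaction, which tests whether the diet difference itself differed between genotypes, called none of the 45 with libraries weighted equally (0% of all genes). At an unadjusted p under 0.05 there were 9 of 45, against 3.2% of all genes. The smallest p-values were those of Cyp2c37 (LKO response minus WT response 2.99 on the log2 scale, SE 0.884), Cyp2c39 (1.51, SE 0.488) and Cyp2c54 (3.04, SE 1), each with a limma adjusted p of 0.927. Cyp2c37 stood at 212, 342, 202 and 112 FPKM in LKO control and 420.4, 366, 440.1 and 689 in LKO ethanol livers, the ethanol libraries lying above the controls, the reverse of WT libraries 2, 3 and 4. The 12 Cyp2c genes tested had an interaction above 0, while 42% of all genes tested and 20% of the 45 were below 0. Without WT ethanol library 2, 10 of the 12 were above 0. Cyp2c23 and Cyp2c70 were then below 0, as were 65.6% of all genes tested. Close copies among the 12 can hold reads of each other and are not independent. In the fit without WT ethanol library 1 the interaction was called, above 0, for Cyp2c37, Cyp2c50 and Cyp2c54 (against 0.0354% of all genes above 0 and 0.0177% below). Library 1 was the high WT ethanol library in these genes, and that fit kept the low library 2. Without WT ethanol library 2, alone or with the side term, no interaction was called (0% of all genes). The fit with a weight for each library called 8, above 0 for Cyp2c29, Cyp2c37, Cyp2c39, Cyp2c50 and Cyp2c54 (against 0.673% of all genes) and below 0 for Cyp4a31, Cyp4f16 and Cyp4f18 (against 3.81%). The call of Cyp4f18, tested only because it was high on ethanol, supports nothing.

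**Figure D4:**
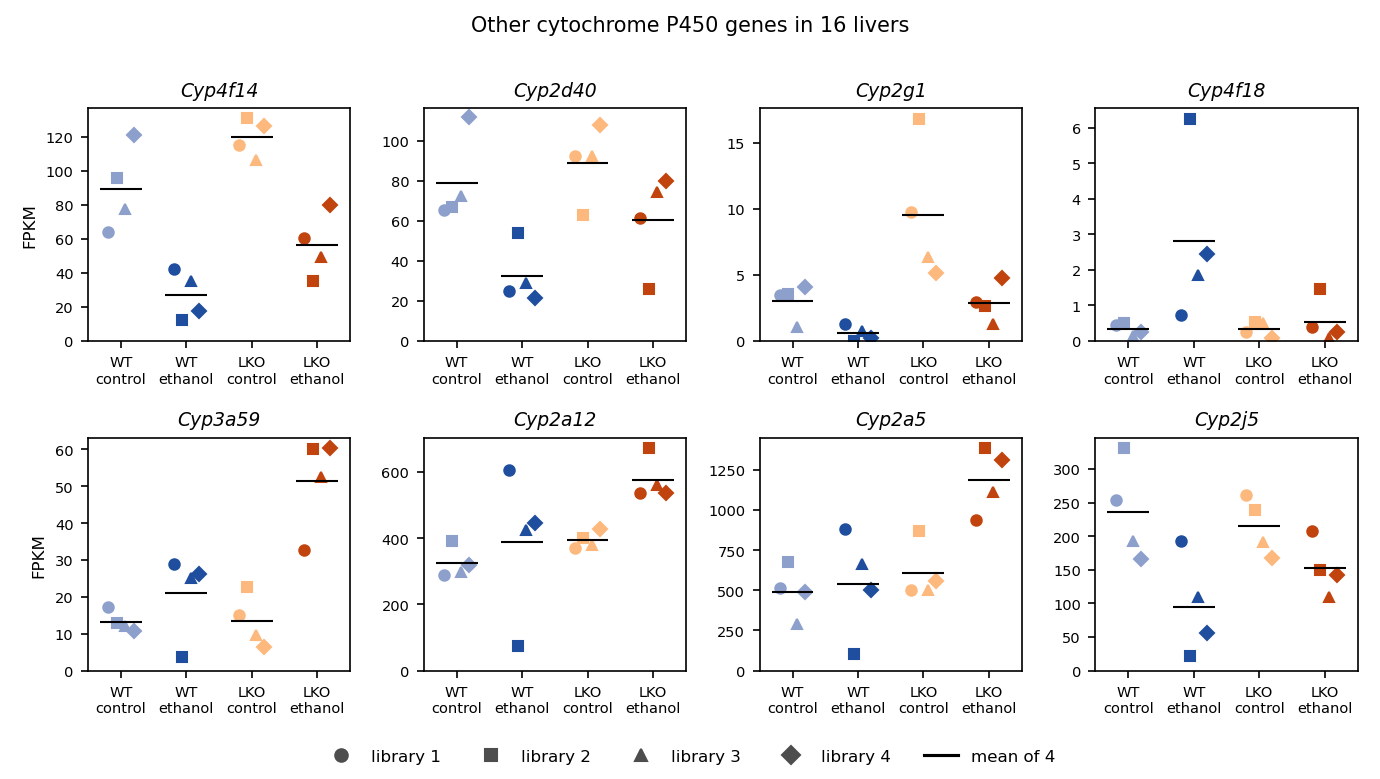
FPKM of 8 P450 genes outside the Cyp2c subfamily (y axis, one panel a gene) in the 4 groups (x axis), with 1 point a library, the shape giving the library number, and a bar at the mean of 4. Cyp4f14 lies lower on ethanol in both genotypes, and Cyp3a59 stands at 32.8 to 60.3 FPKM in LKO ethanol livers against 6.39 to 22.6 in LKO controls.

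Of the Cyp2a genes, Cyp2a5 codes for the coumarin 7-hydroxylase, Cyp2a4 for the testosterone 15-alpha-hydroxylase and Cyp2a12 for a bile acid and steroid 7-alpha-hydroxylase. Cyp2a5 stood at 512, 676, 289 and 487 FPKM in WT control, 879, 104, 662 and 505 in WT ethanol, 504, 869, 499 and 558 in LKO control and 939.9, 1385, 1111 and 1310.2 in LKO ethanol livers. Cyp2a12 stood at 287, 393, 297 and 318 FPKM in WT control, 605, 75.3, 423 and 446 in WT ethanol, 369, 401, 379 and 427 in LKO control and 537, 673, 561 and 535 in LKO ethanol livers. In both, all LKO ethanol libraries lay above all LKO controls and WT ethanol library 2 lay below every other library. With libraries weighted equally and none left out, neither was called (Cyp2a5 in LKO: log2 fold change 0.99, SE 0.495, limma adjusted p = 0.591). With a weight for each library, Cyp2a12 was called higher on ethanol in WT, both genes in the mean of the genotypes, and Cyp2a5 higher in LKO than in WT on ethanol. Cyp2a22 was at or under 0.207 FPKM throughout.

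Among Cyp2d genes, Cyp2d26 had the highest median over the libraries, though not the highest level in each library. It stood at 564, 595, 759 and 730.4 FPKM in WT control, 401, 289, 554 and 563 in WT ethanol, 717, 753, 757 and 612 in LKO control and 568, 542, 511 and 755 in LKO ethanol livers. In WT all ethanol libraries lay below all controls, library 4 by little, and in LKO the diets overlapped. WT ethanol library 2 was the lowest of all, and no difference within a genotype was called with libraries weighted equally and none left out. Cyp2d10 ran from 329 to 767 FPKM and Cyp2d22 from 29.3 to 105. All 5 Cyp2d genes tested had a log2 fold change below 0 on ethanol in both genotypes, and Cyp2d40 in WT was the only call within a genotype with libraries weighted equally and none left out. With a weight for each library Cyp2d10 was called lower in WT too. Cyp2d11, Cyp2d12 and Cyp2d34 reached at most 0.543, 0.708 and 0.0515 FPKM.

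Among Cyp3a genes, the steroid and drug hydroxylases, Cyp3a25 had the highest median of the set. It stood at 273, 214, 208 and 209 FPKM in WT control, 248, 13.6, 194 and 231 in WT ethanol, 212, 212, 174 and 147 in LKO control and 263, 271, 266 and 327 in LKO ethanol livers. All LKO ethanol libraries lay above all LKO controls, and WT ethanol library 2 stood far below all others. In WT, Cyp3a59 stood at 17.3, 12.9, 12.2 and 10.6 FPKM under control diet and 29, 3.64, 25.1 and 26.1 on ethanol, higher in every ethanol library but library 2. Cyp3a13 ran from 42.7 to 173 FPKM and Cyp3a57 reached 0.319. Of 7 Cyp3a genes tested, 6 had a log2 fold change below 0 in WT and 6 above 0 in LKO, with none called in either in the fit to all 16 libraries without weights or further scaling. Under other settings Cyp3a59 and Cyp3a25 were called in LKO and Cyp3a41b, Cyp3a44 and Cyp3a59 in WT. With LKO control library 4 left out, 3 were above 0 in LKO and 4 below. With WT ethanol library 2 left out, 5 were below 0 in WT, Cyp3a13 being at 0.21 and Cyp3a25 at −0.01.

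Cyp2j5, an epoxygenase, stood at 253, 331, 193 and 166 FPKM in WT control, 193, 21.1, 110.1 and 55.2 in WT ethanol, 262, 239, 191 and 168 in LKO control and 207, 149.7, 109.6 and 143 in LKO ethanol livers. The WT ethanol libraries other than library 1 lay below all WT controls (log2 fold change −1.67, SE 0.485, limma adjusted p = 0.0619). The difference was called without WT ethanol library 1, with upper quartile or quantile scaling, with a weight for each library and with the side term. Cyp2j6 ran from 7.38 to 21.9 FPKM and Cyp2j9 from 0.598 to 5.77. Of the remaining Cyp2 genes, Cyp2r1, a vitamin D 25-hydroxylase, stood at 11.6, 11, 6.28 and 7.52 FPKM in WT control, 7.86, 0.994, 6.43 and 5.37 in WT ethanol, 8.80, 11.6, 5.76 and 6.85 in LKO control and 7.32, 8.48, 3.81 and 5.04 in LKO ethanol livers, with WT ethanol library 2 the lowest. Cyp2u1 ran from 0.0892 to 2.21 FPKM, and neither was called with libraries weighted equally and none left out. In the mean of both genotypes Cyp2r1 was called lower with a weight for each library and with the side term. Cyp2s1, Cyp2t4 and Cyp2j8 reached at most 0.544, 0.690 and 1.20 FPKM.

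In family 4, the omega-hydroxylases, Cyp4v3 was among the higher genes, at 67.4, 80.3, 62.2 and 64.8 FPKM in WT control, 85.5, 13.8, 56.1 and 63.3 in WT ethanol, 61.7, 68.3, 90.6 and 93.6 in LKO control and 90.7, 72.3, 78.9 and 75 in LKO ethanol livers. Its groups overlapped apart from the low WT ethanol library 2. Cyp4f15 ran from 29.1 to 75.5 FPKM, Cyp4f17 from 2.09 to 9.34 and Cyp4b1 from 0 to 17.2. Cyp4f13 stood at 152 FPKM in WT ethanol library 2 and between 18.9 and 50.7 in the other 15. The Cyp4a genes, known as targets of PPARα, in the set were low. Cyp4a32 stood at 15.7, 7.56, 11.9 and 20.1 FPKM in WT control, 12.6, 1.52, 10.5 and 21.2 in WT ethanol, 8.47, 9.59, 19 and 10.1 in LKO control and 5.25, 9.23, 4.22 and 5.81 in LKO ethanol livers. Cyp4a31 stood at 2.54, 1.49, 26.3 and 39.7 in WT ethanol livers, libraries 3 and 4 being the highest of all 16, and between 1.19 and 11.8 elsewhere. Neither was called with libraries weighted equally and none left out. Cyp4a29 and Cyp4x1 were 14.3 and 1.69 FPKM in WT ethanol library 2 and at most 0.269 and 0.0340 elsewhere. Cyp4f39 reached 0.167 FPKM.

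The family 1 genes in the set, targets of the aryl hydrocarbon receptor, were near the floor. Cyp1b1 stood at 0.0205, 0.0817, 0.224 and 0.0561 FPKM in WT control, 0.0802, 0.0986, 0.482 and 0.636 in WT ethanol, 0.129, 0.0730, 0.201 and 0.0977 in LKO control and 0.146, 0.213, 0.235 and 0.228 in LKO ethanol livers. Its highest libraries were WT ethanol 3 and 4. Cyp1a1 stood at 0.180, 0.128, 0.313 and 0.220 FPKM in WT control, 0.392, 0, 0.346 and 0.498 in WT ethanol, 0.0503, 0.238, 0.173 and 0.239 in LKO control and 0.214, 0.688, 0.187 and 0.0925 in LKO ethanol livers, with LKO ethanol library 2 the highest and WT ethanol library 2 at 0. Both were below the filter and were not tested. In all, 16 of the 61 genes did not pass it, with 0 to 361 reads in a library.

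Among 12 genes known as sex-biased in mouse liver, 9 are known as higher in females (Cyp2a4, Cyp2b9, Cyp2b13, Cyp2c40, Cyp2c69, Cyp3a16, Cyp3a41a, Cyp3a41b and Cyp3a44) and 3 in males (Cyp2d9, Cyp4a12a and Cyp4a12b). LKO control library 4 held a profile of its own among the 15 libraries other than WT ethanol library 2. Cyp2d9, a testosterone 16-alpha-hydroxylase, stood at 15.9, 20.9, 23.8 and 50.2 FPKM in WT control, 18.5, 4.10, 16.3 and 33.3 in WT ethanol, 12.7, 8.74, 25.7 and 279 in LKO control and 14.2, 12.5, 14.4 and 14.9 in LKO ethanol livers. LKO control library 4 was the one high library. Cyp4a12a and Cyp4a12b, fatty acid omega-hydroxylases, stood at 6.23 and 1.41 FPKM there, with at most 0.238 and 0.0419 elsewhere. Cyp3a16, Cyp3a41a and Cyp3a41b were listed at 0 in this library alone. The 3 male-biased genes summed to 287 FPKM in it against 4.10 to 50.5 in the others. The 9 female-biased genes summed to 444 FPKM against 749 to 3653 in 14 libraries and 289 in WT ethanol library 2. Cux2, a regulator known as higher in female liver, stood at 0.556 FPKM there and at 1.02 to 21.4 in the others. Xist was 25 FPKM in this library, within the range of 13.7 to 49.4 in the libraries other than WT ethanol library 2.

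**Figure D5:**
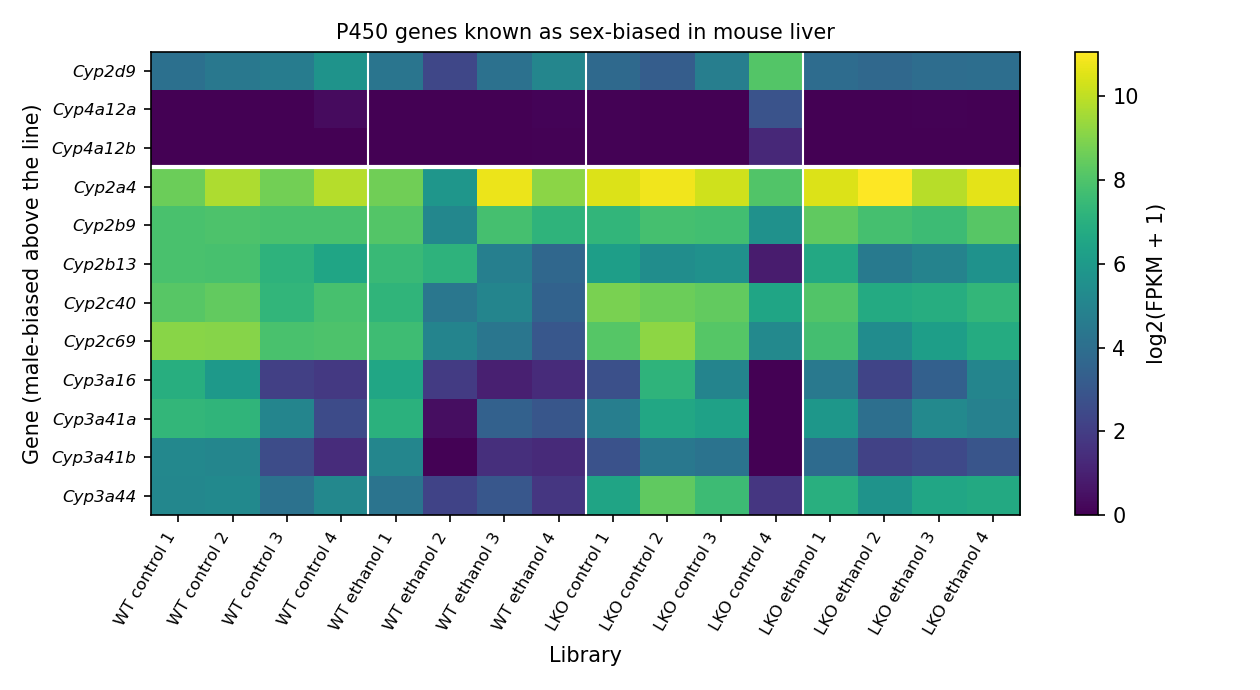
Level of 12 P450 genes known as sex-biased, as log2(FPKM + 1) on the colour scale, in the 16 libraries (x axis), with the 3 male-biased genes above the white line. LKO control library 4 is the brightest column in the upper rows and holds 0 FPKM of Cyp3a16, Cyp3a41a and Cyp3a41b.

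The other female-biased genes varied widely within groups. Cyp2a4 stood at 382, 831, 419.8 and 912 FPKM in WT control, 405, 54.6, 1718 and 563 in WT ethanol, 1447, 1830.3, 1235 and 266 in LKO control and 1450.3, 2154, 942 and 1595 in LKO ethanol livers. Cyp3a16 stood at 124, 63, 3.32 and 2.61 FPKM in WT control, 93.6, 2.81, 0.952 and 1.60 in WT ethanol, 5.49, 145, 30.6 and 0 in LKO control and 21.2, 3.86, 9.63 and 32 in LKO ethanol livers. In WT, libraries 1 and 2 of the controls and library 1 of the ethanol group were higher in Cyp3a16 than libraries 3 and 4 of the same diets. Cyp3a41a and its copy Cyp3a41b showed the same split. Cyp3a41a stood at 159, 151, 31.7 and 4.73 FPKM in WT control, 135, 0.345, 9.75 and 6.79 in WT ethanol, 25.7, 98.2, 80.7 and 0 in LKO control and 56.8, 15.7, 35.7 and 28.2 in LKO ethanol livers. Cyp3a41b stood at 34.6, 33.2, 4.88 and 1.61 FPKM in WT control, 32.9, 0.0492, 1.79 and 1.47 in WT ethanol, 5.89, 20.9, 17.6 and 0 in LKO control and 13.6, 3.53, 4.45 and 6.51 in LKO ethanol livers. All groups overlapped between diets. Cyp3a44 stood at 33.6, 37.6, 17.2 and 34.8 FPKM in WT control and 87.2, 335, 189 and 2.32 in LKO control livers, where library 2 was the highest and library 4 the lowest. The 9 female-biased genes had a log2 fold change below 0 on ethanol in WT, Cyp2c40 and Cyp2c69 being the ones called. With WT ethanol library 2 left out, 8 of the 9 were below 0 and Cyp2a4 was at 0.31. In LKO 6 were above 0, but 1 (Cyp2b9) with LKO control library 4 left out, and none was called with or without that library.

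Cyp2b9 and Cyp2b13 are neighbours on chromosome 7 with coding sequences 92.7% identical. Their levels went apart: Cyp2b9 stood at 234, 253, 234 and 237 FPKM in WT control, 272, 34.2, 223 and 144 in WT ethanol, 157, 220.1, 212 and 48.2 in LKO control and 330.3, 224, 191 and 297 in LKO ethanol livers. Cyp2b13 stood at 178, 143, 26.6 and 12.1 in WT ethanol and 102, 22.9, 29.9 and 49.6 in LKO ethanol livers, beside the control values given above. Cyp2b13 was the higher of the pair in WT ethanol library 2 and, by little, in WT control library 1 (238 against 234 FPKM). In LKO control library 4 Cyp2b13 was near 0 while Cyp2b9 was not. The 250 bases before the start of each gene, shown because so few letters separate them, differ at 2 bases, which are in capitals (RefSeq, GRCm38.p6, plus strand).
Cyp2b13, chr7:26061245-26061494: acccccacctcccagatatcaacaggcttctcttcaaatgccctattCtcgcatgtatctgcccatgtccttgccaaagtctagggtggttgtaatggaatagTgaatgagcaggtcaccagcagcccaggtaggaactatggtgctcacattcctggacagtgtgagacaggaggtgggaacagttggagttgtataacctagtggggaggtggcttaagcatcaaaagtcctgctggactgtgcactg
Cyp2b9, chr7:26173159-26173408: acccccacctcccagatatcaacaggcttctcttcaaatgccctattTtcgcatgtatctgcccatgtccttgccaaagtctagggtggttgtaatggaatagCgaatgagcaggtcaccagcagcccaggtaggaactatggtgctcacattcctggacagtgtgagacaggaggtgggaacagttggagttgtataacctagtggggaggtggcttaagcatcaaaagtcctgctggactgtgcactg
The 300-base promoters of the pair were 99.3% identical and those of Cyp2a4 and Cyp2a5 98.3%. Other words searched on both strands in the 54 promoters were AGGTCA, a nuclear receptor half-site (16 promoters, against 16.3% of all promoters), AGTTCA (9, 14.0%), GTTAAT, an HNF1 half-site (8, 7.10%), ATTGAT, a Onecut word (13, 7.54%), and TATAAA, the TATA box (24, 13.6%). GCGTG, the core bound by AHR, was in 9 promoters against 32.4% of all, TTCNNNGAA, the STAT5 word, in 2 against 8.30%, and a repeat of TGAACT with 4 bases between the copies in none against 0.0122%. GC content and near-identical copies were not taken into account, so these counts are descriptions.

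Genes that serve the P450 enzymes held 1 gene called within a genotype, Hmox1. Of 6 microsomal electron donors none was called in either genotype. Por, the P450 reductase, stood at 177, 162, 346 and 349.9 FPKM in WT control and 270.2, 298, 439 and 481 in WT ethanol livers (log2 fold change 0.57, SE 0.416, limma adjusted p = 0.478), with log2 fold change 0.03 in LKO. Of 12 genes of heme synthesis and breakdown, Hmox1, the heme oxygenase, was the only call. It stood at 8.59, 11.1, 11.7 and 9.77 FPKM in WT control, 47.9, 32, 32.4 and 37.6 in WT ethanol, 8.97, 14.1, 10.8 and 8.27 in LKO control and 88.6, 96.3, 37.6 and 17.8 in LKO ethanol livers, without overlap between diets in either genotype (WT: log2 fold change 1.76, SE 0.399, limma adjusted p = 0.0213; LKO: 2.15, adjusted p = 0.0283). Alas1, the entry enzyme of heme synthesis, had log2 fold changes of −1.24 in WT and −1.14 in LKO (limma adjusted p = 0.266 and 0.623).

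Of 18 listed regulators 17 were tested, and with libraries weighted equally and none left out, none was called on ethanol within a genotype. In WT the log2 fold change was below 0 in the 17, against 52.3% of all genes tested, but in 11 of 17 without WT ethanol library 2, against 31.0%. In LKO it was below 0 in 12, and in 13 without LKO control library 4. For Nr1i3, which codes for CAR, it was −1.37 in WT and −0.20 in LKO (limma adjusted p = 0.167 and 0.995), for Nr1i2, PXR, −0.34 and −0.61 (0.467 and 0.413), and for Ahr −0.87 and −0.17 (0.232 and 0.994). Averaged over both genotypes, Ppara (−1.22, adjusted p = 0.0294) and Nr3c1, the glucocorticoid receptor (−0.51, 0.0475), were lower by limma. Of 11 P450 genes of other families, Cyp7a1 and Cyp8b1 of bile acid synthesis were called lower on ethanol in WT. Of the 8 P450 genes left out by name, Cyp2b10 was called higher in both genotypes and Cyp2e1 lower in WT.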

How the data were processed

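The authors deposited 1 table of FPKM values for 16 liver libraries and 35275 genes. The submitters' processing notes name fastp, STAR 2.6.1, HTSeq, DESeq2 and mm10; the handling of reads that match several genes and of strand is not given in the sources used here. Symbols and positions came from GENCODE M21 (GRCm38). The FPKM of a gene moved in equal steps, each standing for 1 read, so whole reads could be recovered (tolerance 0.001) for 100% of genes above 0.

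Genes with FPKM of at least 1 in at least 4 libraries (11298) were tested as log2(FPKM + 1), a scale that understates the change of low genes. A model of 4 group means was used (lmFit and eBayes with trend, limma 3.58.1, R 4.3.3), two-sided, with Benjamini-Hochberg adjustment over these genes and calls at an adjusted p under 0.05. The fit was also run on simulated counts to check the code. These held no library that stood apart in its profile and no sides. That run therefore says nothing on how the calls depend on such libraries or sides. The genes, marker lists and tests were chosen with earlier results of these data known. Values in every library are given for genes called with all libraries and for the gene with the highest median in each subfamily. For the sex-biased list and for other genes they are given in full or by their range. Where nothing was called, the 3 genes with the smallest p are named. Promoters came from RefSeq (GRCm38.p6). Alternatives were other scalings, a pseudocount of 0.1, no filter, array weights, a term for within-group sides (without WT ethanol library 2), fits to fewer groups and fits without each library. Those chosen after seeing the data were voom on recovered reads, quantile normalization without WT ethanol library 2, differences within sides, and leaving out both libraries that stand apart. The sides and the array weights were themselves estimated from these same data.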

Additional observations from a re-analysis of the deposited data

Results flagged for a closer look

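In a group of 4 libraries, a library was singled out when its gap to the nearest other library on the log2(FPKM + 1) scale, as a part of the range of the group, was above Dixon's 95% critical value for 4 values. Chance alone does this in about 1 of 20 groups, and 180 groups were examined, in which 7 cases were found. For Cyp2b13, LKO control library 4 stood at 0.801 FPKM, with the other 3 libraries of its group at 42.4 to 72.4. For Cyp2g1, WT control library 3 stood at 1.02 FPKM against 3.45 to 4.09. Cyp3a25 was singled out in 3 groups: WT control library 1 stood at 272.8 FPKM against 207.9 to 213.5, WT ethanol library 2 at 13.6 against 193.8 to 247.8, and LKO ethanol library 4 at 326.8 against 263.1 to 271.0. For Cyp3a44, WT control library 3 stood at 17.2 FPKM against 33.6 to 37.6. For Cyp3a59, WT ethanol library 2 stood at 3.64 FPKM against 25.1 to 29.0. Of the 7, 2 fell on WT ethanol library 2, 2 on WT control library 3 and 1 on LKO control library 4. The set depends on the scale. On FPKM themselves, a choice made after seeing the data, there were 16 cases, 3 of them shared with the 7 (Cyp3a25 in WT control library 1 and LKO ethanol library 4, and Cyp3a59 in WT ethanol library 2). Of the other 13, 8 were WT ethanol library 1 as the high library of its group (Cyp2c37, Cyp2c40, Cyp2c50, Cyp2c54, Cyp2c69, Cyp3a16, Cyp3a41a and Cyp3a41b). The remaining 5 were Cyp2d9 in LKO control library 4, Cyp4f13 in WT ethanol library 2, Cyp2a5 in LKO control library 2, Cyp2d40 in WT control library 4 and Cyp4a32 in LKO control library 3.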

How the results depend on the processing

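No paired analysis was run, because the labels give no replicate numbers shared between groups. The titles hold numbers, some of them consecutive between the diets of a genotype, whose meaning no source used here states, so no pairs were formed from them. Library numbers follow the order of the records. Of the 45 genes tested, the number called for ethanol in WT (11) was 5 without the filter on level (1.69% of all genes in the same fit were called), 23 with array weights (38.4%), 7 with voom on recovered reads (3.01%) and 0 in the fit to WT libraries alone (0.513%). For ethanol in LKO (0) it was 3 with upper quartile scaling (0.912% of all genes), 2 with quantile normalization (0.929%), 9 with array weights (7.69%), 5 in the fit to LKO libraries alone (2.2%) and 3 without both libraries that stand apart (1.44%). The side term was fitted only without WT ethanol library 2, so 2 choices changed at once. In LKO that fit called 11 (10.7%), where leaving out that library alone called 6, and quantile normalization without it called 8 (4.43%). For LKO against WT the number was 2 with array weights (2.3%) and 1 with the side term (0.0797%) on the control diet. On ethanol it was 18 with array weights (30.7%), 2 with the side term (1.58%) and 1 without both libraries (0.204%), each against 0. For the interaction (0) it was 8 with array weights (4.48%). For the mean of both genotypes (10) it was 23 with array weights (36.7%) and 18 without both libraries (16.9%). Without WT ethanol library 2 it was 18 (20.5%), 24 with the side term added (32.6%) and 18 with quantile normalization added (20%).

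Leaving out each library in turn gave 3 to 14 for ethanol in WT, 0 to 6 in LKO, 0 to 0 for LKO against WT on the control diet, 0 to 8 on ethanol, 0 to 3 for the interaction and 7 to 18 for the mean. The share of all genes called moved too. It was 1.29% and 1.34% in the fits with 3 in WT and 8.32% in that with 14, 3.62% in that with 6 in LKO, 3.43% in that with 8 and 0.0531% in that with 3 for the interaction, and 4.59% to 5.33% in those with 7 and 20.5% in that with 18 for the mean; the report names the libraries at these ends. The cause of these changes was not tested. The log2 fold change of Cyp2a12 on ethanol in WT (−0.07) ran from −0.40 without WT ethanol library 1 to 0.59 without WT ethanol library 2 when a library was left out, and was 0.022 without WT control library 2. It was 0.062 with quantile normalization, 0.40 with array weights, 0.62 with the side term (without WT ethanol library 2), 0.63 with quantile normalization without WT ethanol library 2 and 0.59 without both libraries. For Cyp2c54 the difference within libraries 1 and 2 was 0.55. Depth limits the genes under the filter, where single reads move a value.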
